A study of Zea mays with 30 samples.

Results

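The last sampled germination stages of 2 maize inbred lines were compared: seeds of the fast-germinating line 72-3 at 24 hours after imbibition (HAI) against seeds of the slow-germinating line F9721 at 48 HAI. The members are the 3 libraries of each of these groups in the table of raw counts, 6 of the 30 libraries of the series, and they were chosen by the line and time in their labels. The series followed 72-3 at 0, 6, 12 and 24 HAI and F9721 at these times and also at 36 and 48 HAI, with 3 libraries for each line and time, and RNA was extracted from whole germinating seeds. The 0 HAI libraries of both lines, from dry seeds, and the F9721 libraries of 24 and 36 HAI serve as references here. Each line is a single inbred genotype, so line and germination speed cannot be told apart. Between 72-3 at 24 HAI and F9721 at 48 HAI the hours of imbibition differ as well, and they cannot be told apart from line. By the study's methods, seeds of the germination test were sterilized with hydrogen peroxide and rinsed before imbibition, and no other treatment is named. Whether the dry seeds were sterilized as well is not stated. By the study's methods 5 seeds were taken at each time and replicates of the germination test came from different ears, but nothing says which ear a replicate number stands for. The p-values therefore measure the spread between libraries, which may be partly technical. This spread was estimated over all 30 libraries and not from the 6 compared alone.

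Dry cereal seeds carry mRNA stored during maturation, which is degraded or translated after imbibition while transcription restarts, the embryo axis elongates by loosening its cell walls, and reserves of the endosperm and scutellum begin to be mobilized. Comparing each line at the end of its own time course, rather than at the same hour, asks which transcripts still differ when both have reached the last stage sampled.

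The libraries of 72-3 at 24 HAI held 10147128 to 14192708 counts on genes and those of F9721 at 48 HAI held 9709825 to 11075023. Reads that hit no annotated gene were 5.70% to 8.19% of those tallied in the former and 5.76% to 7.50% in the latter. By the study's alignment rates, a smaller share of reads aligned in every library of the slow-germinating line than in any of the fast-germinating line. Whether this lowered the counts of single genes, such as those at or near no counts in a line, was not tested. Values per gene are given as normalized CPM, counts per 1000000 of the library size scaled by the TMM method, with the SD over 3 libraries. Gene identifiers are those of B73 AGPv4, and descriptions are given only for genes of the study's own list, since the files do not pair identifiers with names. The label of whole seeds could for that reason not be checked against tissue markers, and fewer cells of a type cannot be told apart from less RNA per cell.

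The 72-3 libraries at 24 HAI were the most variable group of the series. Their biological coefficient of variation was 0.353, the highest of the 10 groups, beside 0.238 for F9721 at 48 HAI, 0.058 for dry 72-3 and 0.113 for dry F9721. The tests pooled the spread over all 10 groups, so it may be understated for the last stages. Across 22190 expressed genes, Pearson's r of log2(CPM + 1) was 0.974 between replicates 2 and 3 of 72-3 at 24 HAI, 0.948 between 1 and 2 and 0.921 between 1 and 3. Replicate 1 thus stood apart. It was nearer than the others to 72-3 at 12 HAI (median r 0.854 against 0.805 and 0.788) and also to F9721 at 48 HAI (0.848 against 0.823 and 0.816). In F9721 at 48 HAI replicates 1 and 2 had r = 0.991 and replicate 3 lay slightly apart, at 0.966 and 0.957. Results are given with and without 72-3 replicate 1 where that library moved them by more than 1.5 times or changed a call.

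Among the F9721 times of 24, 36 and 48 HAI, the last was by median r the one whose profile was most like that of 72-3 at 24 HAI. The median r over 9 pairs of a 72-3 library at 24 HAI and an F9721 library was 0.739 at the same hour (0.713 to 0.808). It was 0.792 for the 36 HAI libraries (0.778 to 0.848) and 0.823 for those of 48 HAI (0.813 to 0.849). The last 2 ranges overlapped, and 72-3 replicate 1 had nearly the same median r with both times, 0.847 and 0.848. Dry seeds of the lines had a higher median r, 0.873. Their median absolute log2 fold change over expressed genes was however 0.62, beside 0.55 at the last stages, so the measures differ on which pair was closer. Genes are no independent replicates, so these correlations across genes only describe the libraries.

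In a principal component analysis PC1 separated the times of each line and PC2 the lines. On PC1, which held 49.5% of the variance, 72-3 at 24 HAI scored 103 to 109, below the 36 HAI libraries of F9721 (122 to 127) and its 48 HAI libraries (149 to 150). Dry seeds of 72-3 already lay below those of F9721 on PC1, at −121 to −119 against −91.2 to −87.6. The PC1 score therefore does not rank the lines by progress of germination. On PC2, with 28.1% of the variance, 72-3 at 24 HAI scored 104 to 116 and F9721 at 48 HAI −16.5 to −12.6, beside 69.1 to 70.1 and −76.1 to −69.5 in dry seeds. The last stages therefore differed on both axes, and neither axis placed any library of one group within the range of the other.

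**Figure D1:**
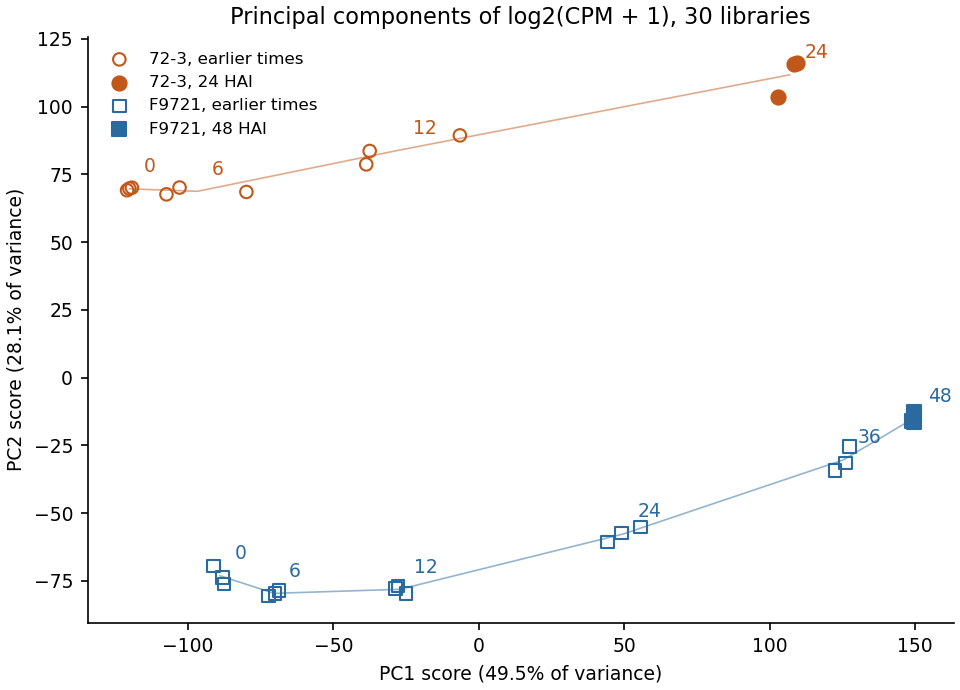
Principal components 1 (horizontal) and 2 (vertical) of log2(CPM + 1), each point 1 of the 30 libraries, circles for 72-3 and squares for F9721, filled at the last stage, with lines through the group means and numbers for HAI. The 72-3 24 HAI libraries sit at 103 to 109 on PC1, below the F9721 48 HAI libraries at 149 to 150, and far above them on PC2. Dry 72-3 libraries also sit below dry F9721 libraries on PC1.

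A total of 4335 genes differed between 72-3 at 24 HAI and F9721 at 48 HAI, 12.5% of the 34746 tested. A gene was called differentially expressed (DEG) where edgeR's quasi-likelihood test gave a Benjamini-Hochberg adjusted p no higher than 0.01 and the log2 fold change was 2 or more in size. Of these, 2279 (6.56% of genes tested) were higher and 2056 (5.92%) lower in 72-3. The median absolute log2 fold change over expressed genes was 0.55. The libraries of the groups did not overlap for 4182 of the DEGs and for 13603 of all genes tested. Without 72-3 replicate 1 the count was 4531.

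Most DEGs were rare transcripts, 1437 with a mean of 1 to 10 counts in the 6 libraries and 1990 with 10 to 100. Of 2283 genes with a mean of at least 1000 counts, 104 were DEGs (4.56%), and 6.68% of genes with 100 to 1000 counts were. The share was 25.0% from 10 to 100 counts and 26.8% from 1 to 10 counts, and none of the 7101 genes below a mean of 1 count was called. Among the 100 most abundant genes of each group, 62 were shared. These 100 genes took 15.4% to 18.6% of the counts in 72-3 at 24 HAI and 20.7% to 21.6% in F9721 at 48 HAI. With at least 10 counts in all 3 libraries taken as detection, 20586 genes were detected in 72-3 and 19893 in F9721, 18430 of them in both, 2156 in 72-3 alone and 1463 in F9721 alone. This limit takes no account of depth. With at least 1 count per 1000000 of the library total instead, 19972 and 19535 genes were detected, 18014 of them in both.

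At the same clock time the lines differed at more genes. Between 72-3 and F9721 at 24 HAI there were 6295 DEGs (18.1% of genes tested, 3318 higher and 2977 lower in 72-3), and between 72-3 at 24 HAI and F9721 at 36 HAI there were 5147 (14.8%, 3076 higher and 2071 lower). The median absolute log2 fold change over expressed genes was 0.78, 0.67 and 0.55 against F9721 at 24, 36 and 48 HAI. These comparisons share the 72-3 libraries, so what separates them is the change within F9721, where 2479 genes (7.13%) differed between 48 and 24 HAI, 1153 higher and 1326 lower at 48 HAI.

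**Figure D2:**
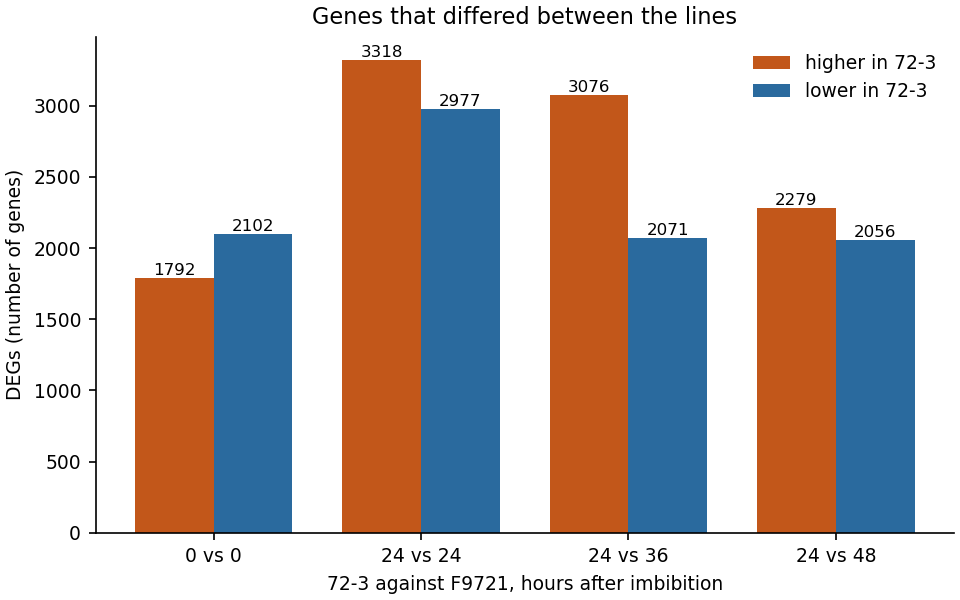
Number of DEGs (vertical axis) between 72-3 and F9721 in dry seeds and for 72-3 at 24 HAI against F9721 at 24, 36 and 48 HAI (horizontal axis), with orange bars for genes higher and blue bars for genes lower in 72-3. Both bars are shortest against F9721 at 48 HAI (2279 and 2056) among the comparisons that use 72-3 at 24 HAI.

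Many of the last-stage DEGs already separated the lines before imbibition. Dry seeds of 72-3 and F9721 differed at 3894 genes (11.2% of genes tested, 1792 higher and 2102 lower in 72-3). Of the last-stage DEGs, 2005 were dry-seed DEGs of the same direction, 919 higher and 1086 lower in 72-3, which is 46.3% of the last-stage list and 51.5% of the dry-seed list. The libraries of these comparisons are different samples. Across expressed genes the fold changes of the comparisons had r = 0.734, a description over genes. A further 1834 dry-seed DEGs were no longer DEGs at the last stages.

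The other 2275 last-stage DEGs (52.5%) were no dry-seed DEGs. Of these, 885 (38.9%) had at most 3 counts in every dry library of both lines, so that no dry-seed difference could have been seen. Among those above this level in a dry group, 610 of 837 genes higher at the last stages and 470 of 553 lower ones had a dry-seed fold change of the same sign. Opposite calls were few: 42 genes were lower in dry 72-3 and higher at its last stage, and 13 the reverse.

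**Figure D3:**
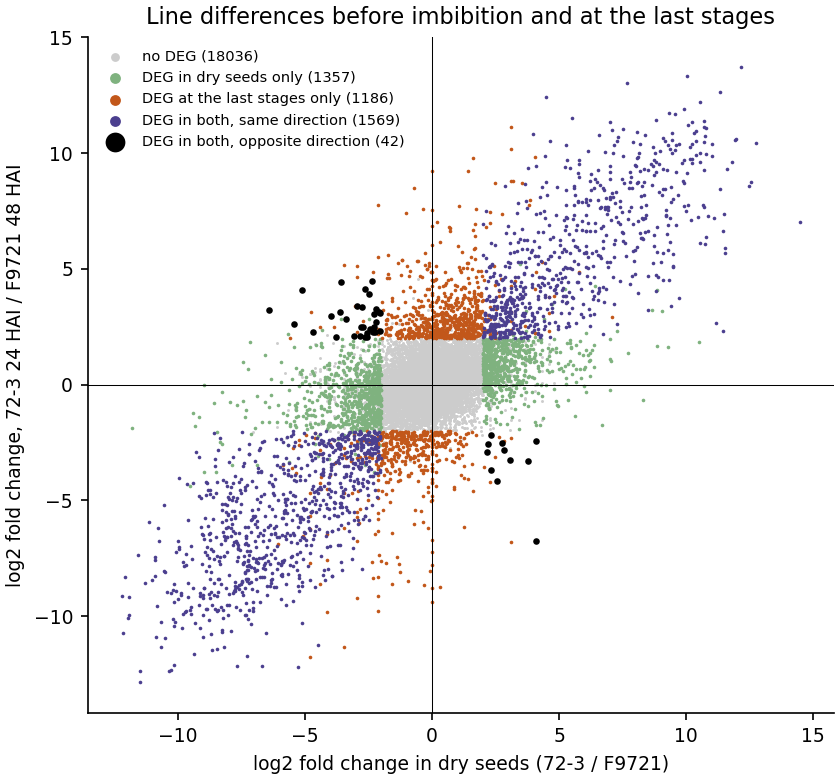
Fitted log2 fold change of 72-3 over F9721 in dry seeds (horizontal) against that at the last stages (vertical) for the 22190 expressed genes, coloured by call. Of 2797 last-stage DEGs drawn, 1569 are dry-seed DEGs of the same direction, along the diagonal, and 42 are of the opposite direction, with fitted values that are no bounds for genes at the limit of detection.

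A large share of the last-stage DEGs were at the limit of detection in one line. This limit was taken as at most 3 counts in each of the 3 libraries of a group, about 0.212 CPM in 72-3 and 0.254 CPM in F9721. In F9721 at 48 HAI, 1173 of the genes higher in 72-3 (51.5%) were at the limit, 579 of them at 0 counts. In 72-3 at 24 HAI, 1212 of the genes lower in 72-3 (58.9%) were, 694 of them at 0. Most of these transcripts were rare in the other line as well, with a median of 1.28 and 1.11 CPM, and 110 and 94 of them reached 10 CPM there.

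For most of these genes the limit held through the whole time course of the line. Of the 1173, 779 were at most at 3 counts in every F9721 library and 394 exceeded it at another F9721 time. Of the 1212, 1056 were so in every 72-3 library and 156 exceeded it at another time. Of the 779 genes, 368 had more than 3 counts in all dry 72-3 libraries and 285 at most 3 in all of them. For the 1056 the same numbers in dry F9721 were 561 and 276. Whether such a gene was not transcribed or its reads did not align to the B73 reference cannot be told apart in these counts.

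The best separated genes could not be named. Zm00001d054044 had 364, 598 and 701 CPM in 72-3 at 24 HAI and 6.84, 8.44 and 6.63 CPM in F9721 at 48 HAI. Its log2 fold change was 6.24 (SE 0.22, adjusted p = 2.55e-19, edgeR), the smallest p among higher genes with more than 3 counts in all 6 libraries. In dry seeds it stood at 148 ± 11.8 and 11.0 ± 0.58 CPM (SD, n = 3). Zm00001d039497 was its counterpart in F9721, with 107, 96.5 and 131 CPM against 0.248, 0.574 and 0.339 CPM in 72-3. Its log2 fold change was −8.18 (SE 0.25, adjusted p = 9.09e-21, edgeR), and dry seeds of the lines already stood at 70.5 ± 5.92 and 1.18 ± 0.54 CPM (SD, n = 3). Both genes were picked among DEGs without overlap between the groups, so their separation at the last stages was fixed by the choice. In dry seeds the libraries of the lines did not overlap for either gene.

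The most abundant transcripts that were near the limit in the other line were also undescribed. Zm00001d047210 had 593, 1236 and 1122 CPM in 72-3 at 24 HAI, with 6 counts over the 3 F9721 libraries at 48 HAI, a ratio of 5658 (95% counting interval 2599 to 15419, exact binomial, counting error only). It stood at 6.13 ± 1.13 CPM in dry 72-3 and 175 ± 122 at 12 HAI (SD, n = 3). Zm00001d018893 had 251, 220 and 302 CPM in F9721 at 48 HAI and 6 counts in 72-3 at 24 HAI, a ratio of 1850 (849 to 5041). Its level in F9721 went from 51.7 ± 1.26 CPM in dry seeds to 258 ± 41.1 at 48 HAI (SD, n = 3), and no 72-3 library had more than 3 counts.

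From dry seeds to the last stage both lines passed through changes of like extent. In 72-3, 7488 genes (21.6% of genes tested) changed by 24 HAI, 4835 up and 2653 down, and in F9721 7431 (21.4%) changed by 48 HAI, 4448 up and 2983 down. The lists shared 4627 genes of 1 direction, 2962 up and 1665 down, which is 61.8% of the 72-3 list and 62.3% of the F9721 list. Only 53 changed in opposite directions. Across expressed genes the changes had r = 0.808. The 100 most abundant transcripts of each line's dry seeds went from 29.0% to 29.7% of the counts to 5.07% to 7.15% in 72-3, and from 29.3% to 32.6% to 6.97% to 7.03% in F9721. They were picked by their level in these same dry libraries, which by itself favours a fall.

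Passing the threshold in one line alone is no test of a difference between the lines. A total of 2808 genes were DEGs from dry seeds in 72-3 but not in F9721, and 82.2% of them had a change of the same sign in F9721. The interaction of line and stage, which tests the difference between the changes themselves, called 576 of the 2808 (20.5%). For the 2751 genes called in F9721 only, 81.9% had the same sign in 72-3 and the interaction called 591 (21.5%).

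The interaction called 1818 genes in all, 5.23% of those tested (edgeR, same thresholds). For 1140 the change was more positive in 72-3 and for 678 more positive in F9721. Without 72-3 replicate 1 at 24 HAI the count was 2187. Directions within each line are given by the sign of the fitted change alone, with no threshold. Only 53 of all genes were DEGs from dry seeds in opposite directions. Among the 1140 genes, 576 were fitted as going up in 72-3 and down in F9721, 312 as up in both and 252 as down in both. With genes at the limit set to 3 counts a library, their median log2 change was 1.56 in 72-3 and −1.22 in F9721. Their median difference between the lines moved from −1.48 in dry seeds to 1.29 at the last stages. Among the 678 genes, 370 were fitted as down in 72-3 and up in F9721, 215 as up in both and 93 as down in both. Their median change was −0.88 in 72-3 and 1.80 in F9721, and their median difference between the lines moved from 1.81 to −0.81. Both sets were selected by the interaction, which is the last-stage difference minus the dry-seed difference. That the medians shift in these directions was therefore fixed in advance.

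**Figure D4:**
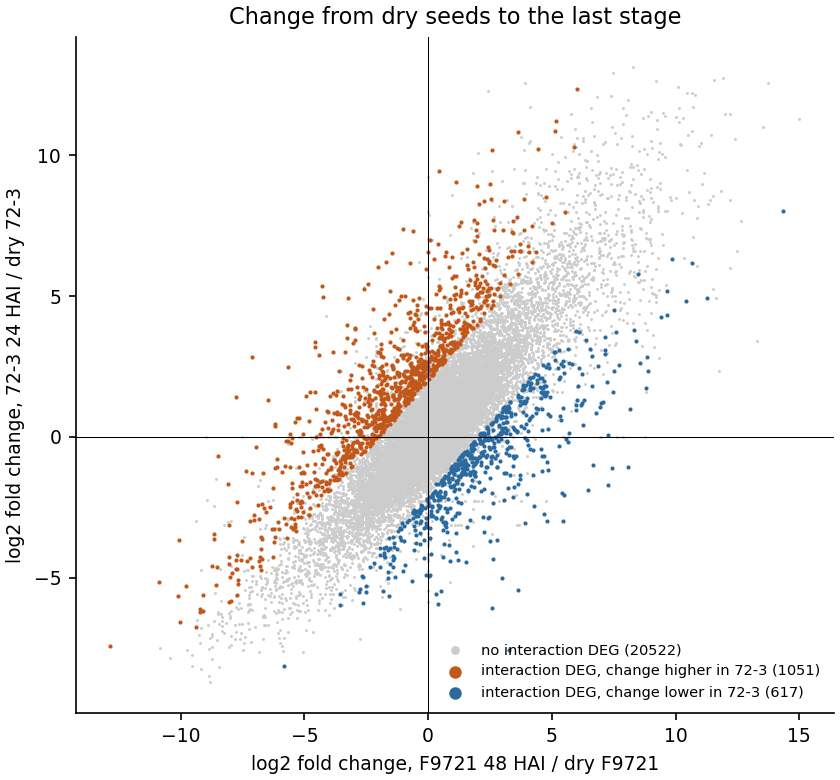
Fitted log2 fold change from dry seeds to 48 HAI in F9721 (horizontal) and to 24 HAI in 72-3 (vertical) for the 22190 expressed genes, with orange points for interaction DEGs whose change was more positive in 72-3 (1051 drawn) and blue points for those more positive in F9721 (617 drawn). Most genes lie along the diagonal, with the interaction DEGs to either side of it.

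For each direction of the interaction, the courses of the 2 best separated genes with more than 3 counts in all 12 libraries are given. Zm00001d013346 was at 3.44 ± 0.10 CPM in dry 72-3 and 10.4 ± 2.70 at 24 HAI, and at 71.5 ± 8.49 in dry F9721 and 2.97 ± 0.43 at 48 HAI (SD, n = 3; interaction log2 6.18, adjusted p = 4.29e-16, edgeR). Zm00001d033296 was at 1.09 ± 0.21 and 11.2 ± 1.06 CPM in 72-3 and at 8.51 ± 0.83 and 1.03 ± 0.35 in F9721 (SD, n = 3; interaction log2 6.37, adjusted p = 2.77e-13, edgeR). Both genes thus changed places between the lines: in dry seeds F9721 was higher, at the last stage 72-3. The opposite course was seen for Zm00001d025016, at 11.9 ± 0.27 and 39.9 ± 3.46 CPM in 72-3 and at 0.856 ± 0.153 and 394 ± 8.33 in F9721 (SD, n = 3; interaction log2 −7.07, adjusted p = 4.29e-16, edgeR). Zm00001d035270 was at 644 ± 9.22 CPM in dry 72-3 and 33.8 ± 1.30 at 24 HAI, near the 31.7 ± 2.71 and 48.1 ± 7.21 of dry and 48 HAI F9721 (SD, n = 3; interaction log2 −4.85, adjusted p = 5.88e-16, edgeR).

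The genes that can be named are the 87 of the study's list for its mapped germination locus, of which 82 had a read and were tested. At the last stages 5 of the 82 were DEGs, 6.10% beside 12.5% of all genes, 2 higher and 3 lower in 72-3. The median log2 fold change of the list was −0.10 (−0.03 with genes at the limit at their bound) and its median absolute value 0.59, beside 0.67 over all genes tested. Of the 82, 58 had an absolute log2 fold change under 1, and 68 had at least 10 counts in all libraries of a group. In dry seeds 6 were DEGs between the lines (11.2% of all genes were) and at 24 HAI in both lines 13 were (18.1%). Without 72-3 replicate 1, 9 were DEGs at the last stages, and SKP1-like protein 21, retinol dehydrogenase 12, scarecrow-like protein 6 and an uncharacterized gene, Zm00001d027338, joined the 5.

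COP9 signalosome complex subunit 1 (Zm00001d048502) belongs to a complex that removes the NEDD8 tag from cullin ubiquitin ligases and, in Arabidopsis, represses light-grown development in the dark. It had 7.80, 5.82 and 4.82 CPM in 72-3 at 24 HAI and 0.450, 0.243 and 0.332 CPM in F9721 at 48 HAI. Every 72-3 library was above every F9721 library (log2 fold change 4.14, SE 0.35, adjusted p = 4.02e-11, edgeR). Before imbibition 72-3 was at 6.47 ± 0.82 CPM and F9721 at 0.629 ± 0.172 in dry seeds (SD, n = 3), and neither the change from dry seeds in 72-3 (log2 −0.07) nor that in F9721 (log2 −0.89) passed the test.

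Malic enzymes convert malate to pyruvate and supply NADPH, and both listed ones had counts in F9721 only. Malic enzyme1 (Zm00001d011289) had 13.6, 12.7 and 15.3 CPM in F9721 at 48 HAI and 0 counts in all 12 libraries of 72-3. It was at least 65.5-fold lower in 72-3, with 3 counts per library as the limit (adjusted p = 4.10e-14, edgeR). Its F9721 means lay between 9.80 and 13.9 CPM at all 6 times, and its change from dry seeds did not pass the test. Malic enzyme 2 (Zm00001d012623) had 3.51, 3.73 and 3.98 CPM in F9721 at 48 HAI and also 0 counts in every 72-3 library, at least 17.7-fold lower in 72-3 (adjusted p = 2.29e-08, edgeR). In contrast to Malic enzyme1 it rose in F9721, from 0.884 ± 0.397 CPM in dry seeds to 3.74 ± 0.235 at 48 HAI (SD, n = 3; log2 2.09, adjusted p = 3.45e-04, edgeR). Reads of near-identical copies are set aside by the counting, so the levels of such paralogs are uncertain.

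Protein PAIR1 (Zm00001d027300) is named after a rice protein needed for meiotic recombination. It had 0.743, 1.07 and 0.610 CPM in 72-3 and 5.40, 6.65 and 5.64 CPM in F9721 at the last stages, with no overlap (log2 fold change −2.87, SE 0.26, adjusted p = 1.66e-10, edgeR). In dry seeds the lines stood at 1.78 ± 0.66 and 6.52 ± 1.09 CPM (SD, n = 3; log2 −1.87, under the fold threshold). The F9721 level stayed between 4.87 and 6.52 CPM on average at every time, and that of 72-3 was lowest at 24 HAI, although neither change from dry seeds was a DEG.

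Other listed genes were no DEGs at the last stages. Peroxisomal membrane protein PEX11-1 (Zm00001d027366), of a family that divides peroxisomes, was at 8.23 ± 0.71 CPM in dry 72-3 and 38.9 ± 1.74 in dry F9721 (SD, n = 3; log2 −2.24, adjusted p = 1.42e-10, edgeR). By the last stages it was at 2.91, 2.87 and 5.43 CPM in 72-3 and 5.13, 6.17 and 6.88 CPM in F9721, which overlapped (log2 −0.69). It fell in F9721 (log2 −2.68, adjusted p = 8.85e-13, edgeR), through 8.87 CPM at 24 HAI. Hydrolase protein 32 (Zm00001d027313) had at most 2 counts in each dry library and rose in both lines (edgeR), to 7.18, 4.18 and 1.83 CPM in 72-3 and 2.25, 2.68 and 1.16 CPM in F9721, and these libraries overlapped.

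Nonspecific lipid-transfer protein (Zm00001d027332), of a family of secreted proteins that bind lipids, reached the same mean level in both lines. It had 5.02, 4.18 and 2.71 CPM in 72-3 at 24 HAI and 3.96, 5.52 and 2.49 CPM in F9721 at 48 HAI (log2 −0.01, SE 0.37). Its F9721 mean was highest at 12 HAI, 6.67 ± 2.18 CPM, when 72-3 was at 0.595 ± 0.261 (SD, n = 3). The peptidoglycan-binding LysM domain-containing protein (Zm00001d027325) had 19.0, 12.1 and 9.50 CPM in 72-3 and 29.7, 25.7 and 29.0 CPM in F9721. These libraries did not overlap, but the log2 fold change of −1.05 was under the threshold.

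The remaining listed DEG was ATPP2-A13 (Zm00001d027361), which shares its name with a phloem protein 2-like gene of Arabidopsis. It had 1.80, 8.19 and 7.53 CPM in 72-3 at 24 HAI and 0.810, 0.649 and 2.07 CPM in F9721 at 48 HAI. The log2 fold change was 2.29 (SE 0.46, adjusted p = 1.66e-04, edgeR), but replicate 1 of 72-3 fell below the highest F9721 library. Its log2 fold change was 1.97 without 72-3 replicate 2 and 1.99 without F9721 replicate 2, both just under the threshold.

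In 4 listed genes the change from dry seeds to the last stage differed between the lines, beside 5.23% of all genes. Early nodulin-like protein 1 (Zm00001d027346), of a family of phytocyanin-like proteins at the cell surface, rose in 72-3 from 0.306 ± 0.154 CPM to 32.1 ± 9.39 (SD, n = 3; fitted log2 6.67, adjusted p = 3.64e-08, edgeR). Its dry 72-3 libraries were at the limit, with 3, 3 and 1 counts, so the fitted values of this gene are no bounds. In F9721 it went from 3.82 ± 0.33 to 11.5 ± 8.70 CPM, with 15.5, 17.4 and 1.49 CPM at 48 HAI, and this change did not pass the test. The interaction was 5.08 on the log2 scale (SE 1.09, adjusted p = 7.99e-04, edgeR). At the last stages the libraries of 72-3, at 33.6, 40.6 and 22.0 CPM, were all above those of F9721, but the difference did not pass the test (log2 1.48).

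The other 3 changed less in 72-3. 4-phosphopantetheinyl transferase sfp (Zm00001d027319), an enzyme that activates carrier proteins, rose in F9721 from 3.62 ± 0.27 to 32.3 ± 1.68 CPM, whereas 72-3 was at 9.09 ± 0.68 in dry seeds and 14.8 ± 6.88 at 24 HAI (SD, n = 3; interaction −2.45, adjusted p = 2.09e-06, edgeR). SKP1-like protein 21 (Zm00001d048536), an adaptor of SCF ubiquitin ligases, rose in F9721 from 13.9 ± 0.23 CPM to 118, 115 and 127 CPM at 48 HAI (log2 3.11). It was at 18.5 ± 2.40 CPM in dry 72-3 and at 65.9, 29.2 and 16.6 CPM at 24 HAI, with replicate 1 highest (interaction −2.10, adjusted p = 1.04e-04, edgeR). The interaction was −1.95 without 72-3 replicate 2 and −1.74 without replicate 3. Without replicate 1 the last-stage log2 fold change of this gene was −2.39, past the threshold, against −1.69 with it.

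Vacuolar protein 8 (Zm00001d027365), named after a yeast protein of the vacuole membrane, differed in dry seeds and not at the last stages. Dry 72-3 was at 7.14 ± 0.92 and dry F9721 at 1.11 ± 0.36 CPM (SD, n = 3; log2 2.66, adjusted p = 4.44e-06, edgeR). The last stages were at 6.56, 5.57 and 3.73 CPM in 72-3 and 4.05, 4.71 and 2.98 CPM in F9721, which overlapped (log2 0.43). The interaction was −2.22 (adjusted p = 0.00257, edgeR), and −1.9999 without replicate 1 of dry F9721, where its adjusted p of 0.0122 missed the threshold.

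**Figure D5:**
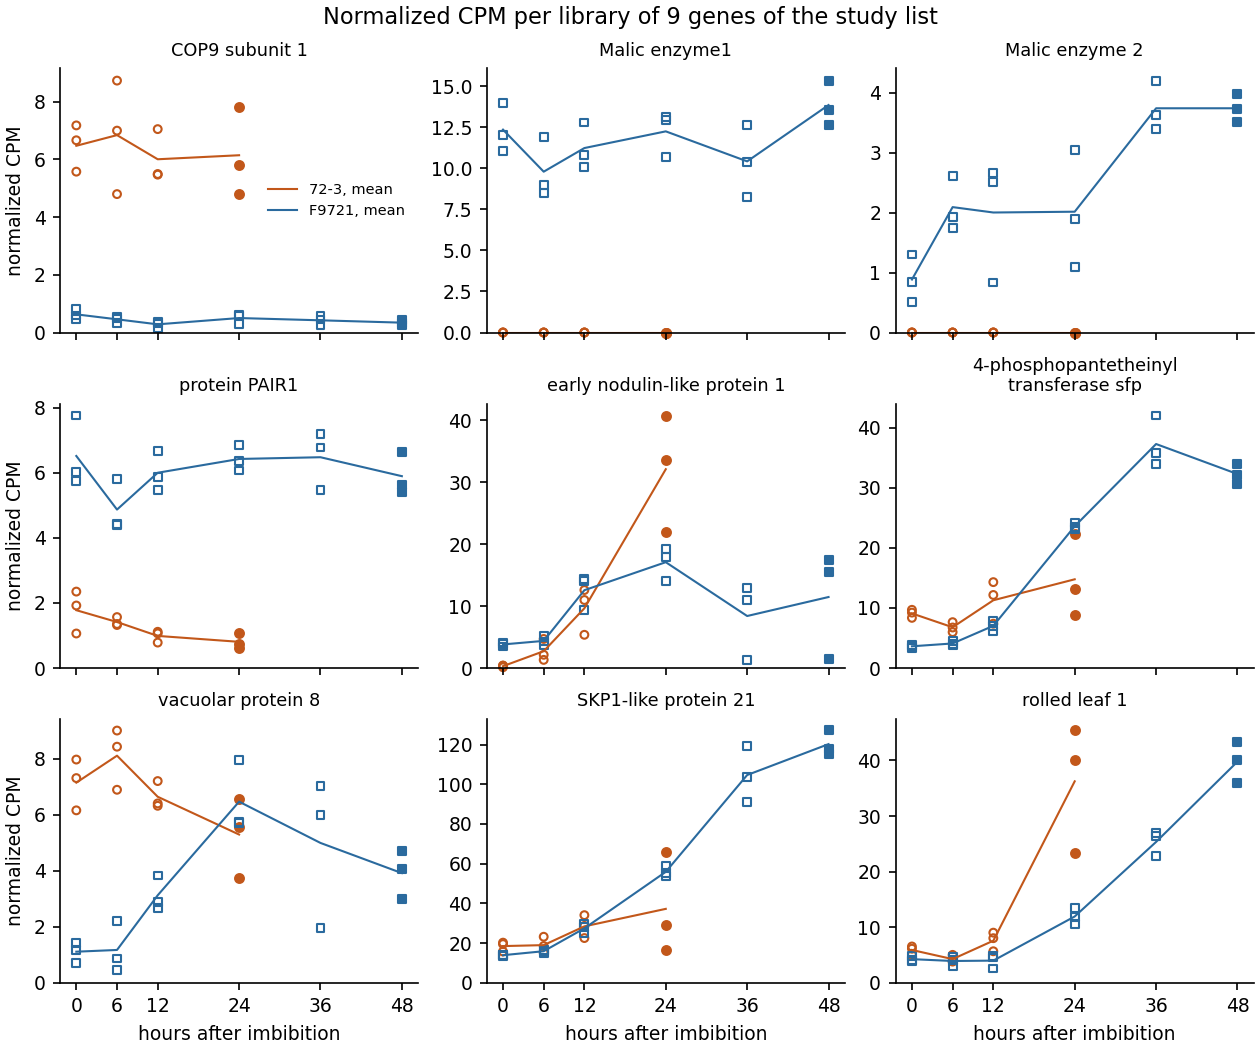
Normalized CPM (vertical) of 9 genes of the study list by hours after imbibition (horizontal), circles and orange lines for 72-3, squares and blue lines for F9721, 1 point a library, filled at the last stage, lines through the means. COP9 subunit 1, both malic enzymes and PAIR1 are separated at every time, whereas rolled leaf 1 reached like levels at 24 HAI in 72-3 and 48 HAI in F9721.

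By role, the calls of the list were scattered. In the cell wall and cell surface group none of 6 tested genes was a DEG at the last stages, where 12.5% of all genes were. From dry seeds 4 of the 6 rose in 72-3 (13.9% of all genes rose) and 2 in F9721 (12.8%). Xyloglucan endotransglucosylase/hydrolase protein 5 (Zm00001d027368), an enzyme that cuts and rejoins wall xyloglucan, rose in both lines, from at most 3 counts in each dry 72-3 library, and ended at 5.57 ± 1.86 and 6.88 ± 2.73 CPM (SD, n = 3). Of 7 metabolic enzymes 2 were DEGs, the malic enzymes, beside 12.5% of all genes. Protein-ribulosamine 3-kinase (Zm00001d027369), which removes sugar adducts from proteins, fell in both lines by a like amount (log2 −5.55 and −5.56). Riboflavin biosynthesis protein ribD (Zm00001d027367) lay just outside the threshold, with 3.22, 2.79 and 4.002 CPM in 72-3 and 13.1, 11.7 and 15.3 CPM in F9721 (log2 −1.995; a call that changed with the tool), and it fell from dry seeds in 72-3 by 2.51 on the log2 scale. These genes, the rolled leaf genes and scarecrow-like protein 6 were singled out after their values were seen.

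None of the 9 genes of transcription, chromatin and RNA was a DEG at the last stages, beside 12.5% of all genes. Rolled leaf 1 (Zm00001d048527) and rolled leaf 2 (Zm00001d027317), homeodomain-leucine zipper factors of leaf polarity, rose in both lines, by a log2 of 2.61 and 3.29 in 72-3 and 3.22 and 3.57 in F9721. Rolled leaf 1 had 23.3, 40.0 and 45.4 CPM in 72-3 at 24 HAI and 40.1, 35.9 and 43.3 CPM in F9721 at 48 HAI (log2 −0.14), whereas F9721 at 24 HAI was at 11.9 ± 1.44 CPM (SD, n = 3). Scarecrow-like protein 6 (Zm00001d027292), a GRAS transcription factor, lay just outside the threshold in the other direction, with a log2 fold change of 1.99 and libraries that did not overlap (8.24, 15.8 and 10.6 against 3.33, 4.87 and 0.497 CPM). THO complex subunit 1 (Zm00001d027324), of the mRNA export machinery, was at 61.1 ± 7.48 and 54.6 ± 2.72 CPM (SD, n = 3; log2 0.16).

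The most abundant described genes of the remaining groups were no DEGs. Beta tubulin1 (Zm00001d027295), a subunit of microtubules, had 164, 231 and 353 CPM in 72-3 and 103, 118 and 143 CPM in F9721, without overlap (log2 1.04, adjusted p = 1.25e-05, edgeR). Signal recognition particle receptor homolog 1 (Zm00001d027293), which docks ribosomes at the endoplasmic reticulum, was at 226 ± 15.4 and 221 ± 29.4 CPM (SD, n = 3; log2 0.03). A membrane protein (Zm00001d027355) was at 88.7 ± 21.6 and 170 ± 18.7 CPM (SD, n = 3; log2 −0.94), and retinol dehydrogenase 12 (Zm00001d027353) at 24.3 ± 18.7 and 59.1 ± 27.4 (SD, n = 3; log2 −1.28). The latter fell from dry seeds in both lines (log2 −2.23 and −2.18), and without 72-3 replicate 1, at 45.5 CPM beside 17.4 and 9.97, its last-stage log2 fold change was −2.12, past the threshold. On a per-length scale, beta tubulin1 was at 395 TPM in 72-3 and 177 TPM in F9721, against 2.34 and 0.125 TPM for COP9 subunit 1.

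Over the whole list, 13 genes rose and 3 fell from dry seeds in 72-3 (21.6% of all genes changed), and 14 rose and 3 fell in F9721 (21.4%). Of these, 8 rose and 2 fell in both lines. None of the 30 uncharacterized genes tested was a DEG at the last stages, beside 12.5% of all genes, and their median absolute log2 fold change was 0.35.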

How the data were processed

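RNA of whole maize seeds was sequenced as paired reads. The authors used fastp for trimming, Hisat2 for alignment to B73 AGPv4 and HTSeq (union mode) for counting, and they deposited the raw count per gene, without normalization. The TPM values, also made by the authors and deposited, served as an alternative and for comparing genes. Tool versions, strand setting and gene lengths are not given in the sources used here, so genes with an antisense or overlapping neighbour are uncertain. Summary entries such as reads without a gene entered neither library sizes nor tests.

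The main tool was edgeR 4.0.16 in R 4.3.3: TMM scaling, 10 group means over all 30 libraries, quasi-likelihood tests and Benjamini-Hochberg adjustment over the 34746 genes with at least 1 read. Correlations and components used genes whose mean log2 CPM was 0 or more. On simulated counts, edgeR called 98 of 100 genes with a log2 fold change of 3 in the last-stage comparison and 84 of 100 in the interaction, over 34076 genes. The changed genes had simulated means of at least 10 counts, and all groups were given the same spread. Recovery of rarer genes and false calls are not described by these numbers. Alternatives were DESeq2 1.42.0, its size factors, filterByExpr, an adjusted p of 0.001, only the groups compared, limma 3.58.1 on log2 TPM with a pseudocount of 1 or 0.1, the replicate number as a block and each library left out. A count limit of 3 covers counting error only.

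Genes named were 8 listed genes that the study displays, other listed DEGs, the most abundant described gene of each role group, and by identifier the smallest-p and the most abundant one-line genes in each direction of each main test, up to 2. Members and lists were chosen with earlier results of these data known. Gene names come from the study's list of 87 genes, since no identifier matched the gene table at hand. Germination tests, association mapping and gene ontology were not analysed here.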

Additional observations from a re-analysis of the deposited data

Results flagged for a closer look

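Changes from dry seeds to the last stage that differed between the lines were found for 1818 genes by the interaction in edgeR's quasi-likelihood test. Among the listed genes these were early nodulin-like protein 1 (Zm00001d027346) with 5.08 on the log2 scale, 4-phosphopantetheinyl transferase sfp (Zm00001d027319) with −2.45, vacuolar protein 8 (Zm00001d027365) with −2.22 and SKP1-like protein 21 (Zm00001d048536) with −2.10, each as the change in 72-3 minus that in F9721. Among the undescribed genes the interaction was 6.18 for Zm00001d013346, 6.37 for Zm00001d033296, −7.07 for Zm00001d025016 and −4.85 for Zm00001d035270. It was also past the threshold for genes chosen for their last-stage difference, with 2.49 for Zm00001d054044, 7.93 for Zm00001d047210 and −2.29 for Zm00001d039497. The fitted value of early nodulin-like protein 1 rests on dry 72-3 libraries with at most 3 counts and is no bound. The fitted value of Zm00001d047210 rests on F9721 libraries at or near 0 counts and is no bound. Its interaction lost the call without dry F9721 replicate 2 (7.29, adjusted p = 0.0606, edgeR) or 3 (7.79, adjusted p = 0.0254, edgeR), and that of Zm00001d039497 was −1.91 without dry 72-3 replicate 1, under the fold threshold.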

How the results depend on the processing

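The last-stage count of 4335 DEGs lay between 3911 and 4531 with each library left out, and was 3853 with DESeq2, 4318 with its size factors, 3672 with filterByExpr, 3458 at an adjusted p of 0.001, 2899 with only the groups compared and 4244 with limma on log2(TPM + 0.1). It was 1855 on log2(TPM + 1), a scale that shrinks the folds of rare genes. There COP9 signalosome complex subunit 1 (log2 1.56), PAIR1 (−1.26) and ATPP2-A13 (1.60) were under the fold threshold, and 3 listed genes were called in place of 5. ATPP2-A13 also lost its call with only the groups compared (adjusted p = 0.0278, edgeR). With each library left out, 4 to 9 listed genes were called, 9 without 72-3 24 HAI replicate 1. The interaction count of 1818 lay between 1285 and 2187 over its alternatives.

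RibD, just under the fold threshold, was called with DESeq2 (log2 −2.03), its size factors (−2.03), only the groups compared (−2.04) and in 3 of 6 left-out fits, and scarecrow-like protein 6 in 7 of its 14 alternatives. Among the genes named, direction turned for Zm00001d027293, Zm00001d027332 and rolled leaf 1 (Zm00001d048527), which passed the threshold in no fit. Rolled leaf 1 had 0.10 without 72-3 replicate 1 and down to −0.33 with another library left out. Zm00001d027293 had a log2 of −0.0118 with only the groups compared and −0.0733 to 0.0997 with each library left out. Zm00001d027332 had 0.11 on log2(TPM + 0.1), 0.10 on log2(TPM + 1) and −0.26 to 0.30 with each library left out. With 0 counts as the limit of detection, 1273 DEGs were at it in a line, in place of 2385. The median r between the last stages was 0.754 on log2(CPM + 0.1), against 0.823. The median log2 fold change of expressed genes was 0.07, and 0.14 and 0.12 on the TPM scales.

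Replicate numbers are shared by all groups. Same-numbered libraries of the last stages deviated from their group means with r = 0.20, 0.06 and 0.34, and not every library correlated best with its own number, so the numbers were not taken as pairs. Over all pairs of groups the median r was 0.025 for same-numbered libraries (−0.402 to 0.865) and −0.013 for others (−0.762 to 0.644). A pairing between single times of a line was not tested. The fit with a replicate block called 4170 genes, 6 of them listed, and it turned Zm00001d027332 to 0.00504. Depth limited the rare genes: below a mean of 1 count no gene was called.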
